A study of Homo sapiens with 18 samples.

Results

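The genes described here are 10 transcriptional regulators that set and hold B-cell identity: PAX5, EBF1, TCF3, SPI1, SPIB, POU2AF1, BACH2, IKZF1, FOXO1 and BCL6. They were taken by symbol from a table of 56609 gene rows, and all 10 were found. B-cell fate is built by a small network in which TCF3, EBF1 and FOXO1 switch on PAX5, and PAX5 then holds the B-cell programme and represses genes of other lineages. SPI1 and SPIB are related factors of the ETS family, IKZF1 encodes Ikaros, POU2AF1 is the B-cell coactivator of octamer-binding POU factors, and BACH2 and BCL6 are repressors that delay plasma cell differentiation and serve the germinal centre reaction. Their RNA levels are described here, and whether they track how much of the B-cell programme a leukemic cell line has kept was not tested.

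The RNA-seq samples came from HG3, MEC2 and PCL12, EBV-positive cell lines established from chronic lymphocytic leukemia (CLL), each of which stands for 1 patient's clone. MEC2 carries mutated and HG3 and PCL12 unmutated IGHV genes. Each line was kept in RPMI medium with 10% serum and either left unstimulated or stimulated for 4 h with 2.5 μg/mL of the TLR9 agonist CpG-ODN2006, with 3 replicate pairs per line and 18 libraries in 6 groups. The comparisons ask how the lines differ before stimulation and whether CpG moved these regulators within 4 h. Each replicate belongs to 1 line, so a p value measures the spread between these samples and not between patients.

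The libraries held 20382943 to 67308932 counts (median 34187429), and levels are given as CPM, each library's counts scaled to a common total with TMM factors. A count of 3 corresponded to 0.0429 to 0.155 CPM. A list of 5 B-cell markers, CD79A, CD79B, MS4A1 and CD22 among them, summed to between 1747 and 3229 CPM in all 18 libraries, whereas 7 T-cell markers reached at most 5.26 CPM, 7 myeloid markers 3.91 CPM, 4 NK-cell markers 10.8 CPM and 3 erythroid markers 0.129 CPM. A list of 5 plasma cell markers summed to between 235 and 1774 CPM, so B-cell markers were high in each library and plasma cell transcripts were present beside them. Mitochondrial transcripts made up 20.2% of the counts of HG3 replicate 2 without CpG and 19.7% of MEC2 replicate 2 with CpG, and between 2.82% and 9.28% of the remaining 16 libraries. PCL12 replicates 2 and 3 also held transcripts typical of MEC2. The median of 45 genes, chosen as expressed in MEC2 and near absent from PCL12 replicate 1, reached between 29.0% and 31.3% of the MEC2 level there, and between 2.26% and 2.36% in replicate 1, on which they had been chosen. Unstimulated PCL12 levels of the members are therefore also compared with replicate 1 as the only PCL12 pair. In that fit unstimulated PCL12 is 1 library with no spread of its own, its error comes from the HG3 and MEC2 groups, and the library is assumed to vary as they do, so its p values give no independent support.

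The start regions of 5 members are shown because PAX5, TCF3 and FOXO1 share the low HG3 level described below, and SPIB and IKZF1 carry the pair ratios after CpG. Each runs from 250 bases before to 50 bases after a RefSeq gene start on GRCh38.p14, 5′ to 3′ on the gene's strand, and capitals mark matches to the 5 motifs described after them. For IKZF1 the first of its 3 RefSeq starts is shown.
PAX5 (chr9:37034219-37034518, minus strand): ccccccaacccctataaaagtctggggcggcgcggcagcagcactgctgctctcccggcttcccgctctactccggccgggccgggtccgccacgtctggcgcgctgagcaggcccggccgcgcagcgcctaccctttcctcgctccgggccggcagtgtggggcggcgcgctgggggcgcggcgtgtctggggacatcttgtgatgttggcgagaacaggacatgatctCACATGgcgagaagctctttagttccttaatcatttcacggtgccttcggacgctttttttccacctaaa
TCF3 (chr19:1652566-1652865, minus strand): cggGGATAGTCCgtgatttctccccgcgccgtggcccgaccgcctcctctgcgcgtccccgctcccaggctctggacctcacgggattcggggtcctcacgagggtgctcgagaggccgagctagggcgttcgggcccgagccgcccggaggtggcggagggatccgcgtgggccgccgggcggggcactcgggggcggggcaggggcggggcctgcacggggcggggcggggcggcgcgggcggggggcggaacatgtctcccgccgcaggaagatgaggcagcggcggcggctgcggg
FOXO1 (chr13:40666592-40666891, minus strand): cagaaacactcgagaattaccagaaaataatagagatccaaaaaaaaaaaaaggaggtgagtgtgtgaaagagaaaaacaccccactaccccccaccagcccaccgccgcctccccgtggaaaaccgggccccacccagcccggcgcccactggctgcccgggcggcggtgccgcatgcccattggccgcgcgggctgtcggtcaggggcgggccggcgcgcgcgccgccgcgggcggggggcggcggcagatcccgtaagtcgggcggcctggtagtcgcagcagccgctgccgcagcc
SPIB (chr19:50418688-50418987, plus strand): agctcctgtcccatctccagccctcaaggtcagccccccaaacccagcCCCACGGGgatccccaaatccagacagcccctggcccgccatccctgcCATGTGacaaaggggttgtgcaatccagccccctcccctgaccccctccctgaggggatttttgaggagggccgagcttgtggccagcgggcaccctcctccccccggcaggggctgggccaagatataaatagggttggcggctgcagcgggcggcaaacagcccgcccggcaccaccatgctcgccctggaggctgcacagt
IKZF1 (chr7:50304466-50304765, plus strand): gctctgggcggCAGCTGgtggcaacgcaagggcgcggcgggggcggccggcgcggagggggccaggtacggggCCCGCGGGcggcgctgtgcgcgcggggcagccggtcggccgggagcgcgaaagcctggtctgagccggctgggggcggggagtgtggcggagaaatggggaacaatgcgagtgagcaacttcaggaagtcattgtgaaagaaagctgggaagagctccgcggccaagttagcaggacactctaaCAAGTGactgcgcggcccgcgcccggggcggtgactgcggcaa

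The motifs were searched on both strands in 11 start regions of 8 members, with SPI1 and POU2AF1 not matched, and in all 35116 regions of the same length. The octamer ATGCAAAT, the element that POU factors bind with POU2AF1, was in 0 of 11 against 1.77% of all regions, and the ETS-type element GAGGAAGT in 0 of 11 against 2.59%. The EBF-type element CCCNNGGG was in 2 of 11 (SPIB and the first IKZF1 region) against 19.1%, and the NF-κB-type element GGANNNTCC in 2 of 11 (TCF3 and a BCL6 region) against 9.32%. The E-box CANNTG, the element of E proteins such as TCF3, was in 6 of 11 against 68.7%. The printed PAX5, SPIB and IKZF1 regions held 1, 1 and 2 E-boxes, and the TCF3 and FOXO1 regions held 0. The last 3 motifs read the same on both strands, and none of the printed matches overlapped another. The printed TCF3, IKZF1, FOXO1, SPIB and PAX5 regions had a GC content of 78.3%, 71%, 68%, 67% and 65%. The median over all regions was 58.7% (quartiles 47% and 68%). A match is only a match of letters.

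PAX5, TCF3 and FOXO1 were lower in unstimulated HG3 than in both MEC2 and PCL12. No member differed between MEC2 and PCL12 at an adjusted p under 0.05. That comparison includes PCL12 replicates 2 and 3, which held transcripts typical of MEC2, and whether this narrowed it was not tested. Over 10 alternative settings, PCL12 replicate 1 alone among them, the MEC2 against PCL12 Log2FC ran from 0.096 to 0.33 for PAX5. It ran from -0.38 to -0.25 for TCF3, from 0.43 to 0.73 for FOXO1 and from 0.34 to 0.71 for EBF1. PAX5, the commitment factor of the B lineage, lies on chromosome 9 (36833269 to 37034268, minus strand, GENCODE 44 on GRCh38). In unstimulated HG3 its level was 176, 68.7 and 153 CPM in replicates 1 to 3. In unstimulated MEC2 it was 312, 324 and 576 CPM. In unstimulated PCL12 it was 317, 329 and 453 CPM. The lowest MEC2 and PCL12 libraries thus lay above the highest HG3 library, and MEC2 and PCL12 overlapped. In bulk RNA, fewer expressing cells and less RNA per cell cannot be told apart. PAX5 was higher in MEC2 than in HG3 by a Log2FC of 1.60 (SE 0.30, adjusted p = 0.000591) and in PCL12 by 1.46 (SE 0.30, adjusted p = 0.00155). Without the mitochondria-rich HG3 replicate 2, which held the lowest PAX5 level, the Log2FC values were 1.31 and 1.18 (adjusted p = 0.00217 and 0.00553). With PCL12 replicate 1 as the only PCL12 pair the PCL12 value was 1.27 and lost its call (adjusted p = 0.125).

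TCF3 encodes E proteins that act upstream of EBF1 and PAX5 (chromosome 19, 1609291 to 1652615, minus strand). Its unstimulated level was 280, 296 and 212 CPM in HG3. It was 618, 603 and 497 CPM in MEC2. It was 732, 679 and 645 CPM in PCL12. The 3 lines did not overlap, with HG3 lowest and PCL12 highest. The Log2FC against HG3 was 1.12 in MEC2 (SE 0.24, adjusted p = 0.00205) and 1.38 in PCL12 (SE 0.24, adjusted p = 0.000227). With PCL12 replicate 1 alone the PCL12 value was 1.50 (adjusted p = 0.0152). Between MEC2 and PCL12, whose 3 libraries did not overlap, the Log2FC of -0.26 missed the threshold (SE 0.24, adjusted p = 0.758).

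FOXO1, a forkhead factor held in check by PI3K and AKT signalling, lies on chromosome 13 (40555667 to 40666641, minus strand). Its unstimulated level was 19.7, 4.18 and 18.2 CPM in HG3. It was 65.4, 61.5 and 46.5 CPM in MEC2. It was 34.2, 31.3 and 60.7 CPM in PCL12. HG3 lay below both other lines in each of its libraries, with replicate 2 again the lowest. MEC2 and PCL12 overlapped only through PCL12 replicate 3, which held transcripts typical of MEC2. FOXO1 was higher in MEC2 by a Log2FC of 2.04 (SE 0.44, adjusted p = 0.00342) and in PCL12 by 1.58 (SE 0.43, adjusted p = 0.0218). Without HG3 replicate 2 these were 1.63 and 1.17 (adjusted p = 0.00312 and 0.0328). The PCL12 call was lost without PCL12 replicate 3 (1.24, adjusted p = 0.106), without both mitochondria-rich libraries (1.15, adjusted p = 0.0510), with the 2 groups alone (1.58, adjusted p = 0.0823) and with PCL12 replicate 1 alone (1.29, adjusted p = 0.332). A lncRNA on the same strand shares 1352 exon bases with FOXO1, and its reads could be split between them.

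EBF1, the partner of PAX5 in B-cell specification, had the opposite order (chromosome 5, 158695920 to 159099916, minus strand). Its unstimulated level was 34.4, 37.8 and 74.6 CPM in HG3. It was 22.9, 31.3 and 42.2 CPM in MEC2. It was 19.4, 24.9 and 29.6 CPM in PCL12. HG3 lay above PCL12 without overlap and overlapped MEC2. EBF1 was lower in PCL12 than in HG3 by a Log2FC of -0.99 (SE 0.31, adjusted p = 0.0434), and the MEC2 value was -0.61 (SE 0.31, adjusted p = 0.253). Without HG3 replicate 3, the highest library, the PCL12 value was -0.55 and lost its call (adjusted p = 0.316). It also missed the threshold without any 1 of the PCL12 replicates (-0.84 to -1.12, adjusted p = 0.172, 0.105 and 0.0555), and with PCL12 replicate 1 alone it was -1.32 (adjusted p = 0.200). The call was also lost with limma-voom (adjusted p = 0.0819), library totals (adjusted p = 0.103) and the 2 groups alone (adjusted p = 0.124).

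The ETS factors were highest in PCL12 replicate 1. SPIB, which acts in mature B-cell signalling, lies on chromosome 19 (50418938 to 50431314, plus strand) and shares 839 exon bases with another protein-coding gene on the same strand. Its unstimulated level was 27.1, 39.9 and 33.5 CPM in HG3. It was 54.3, 44.3 and 25.6 CPM in MEC2. It was 110, 68.5 and 45.3 CPM in PCL12. PCL12 lay above HG3 in each library, and MEC2 overlapped both. The Log2FC of PCL12 against HG3 was 1.16 (SE 0.37, adjusted p = 0.0484), and with PCL12 replicate 1 alone, the library with the highest unstimulated SPIB level, it was 1.74 (SE 0.40, adjusted p = 0.00946). The call was lost without PCL12 replicate 1 (0.76, adjusted p = 0.276), without PCL12 replicate 2 (1.22, adjusted p = 0.0843), without any 1 of the HG3 replicates (1.04, 1.33 and 1.16, adjusted p = 0.157, 0.0870 and 0.127) and without both mitochondria-rich libraries (1.30, adjusted p = 0.139). It was also lost with limma-voom (adjusted p = 0.105), RLE size factors (adjusted p = 0.0615) and the 2 groups alone (adjusted p = 0.0647). MEC2 stood 0.31 above HG3 (SE 0.37, adjusted p = 0.679) and its Log2FC against PCL12 was -0.85 (SE 0.37, adjusted p = 0.372), or -1.45 with PCL12 replicate 1 alone (SE 0.41, adjusted p = 0.0694).

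SPI1, the ETS factor that doses myeloid against B-cell fate, lies on chromosome 11 (47354860 to 47378547, minus strand). Its unstimulated level was 37.6, 59.3 and 37.0 CPM in HG3. It was 58.1, 54.9 and 34.2 CPM in MEC2. It was 112, 69.8 and 41.5 CPM in PCL12. The lines overlapped, and the PCL12 value against HG3 was a Log2FC of 0.74 (SE 0.32, adjusted p = 0.166). Without PCL12 replicate 3 it was 1.04 and passed (adjusted p = 0.0429), without PCL12 replicate 1 it was 0.32 (adjusted p = 0.634), and with PCL12 replicate 1 alone it was 1.34 (adjusted p = 0.0525). MEC2 stood below PCL12 by a Log2FC of -0.60 (SE 0.31, adjusted p = 0.489), or -1.21 with PCL12 replicate 1 alone (SE 0.40, adjusted p = 0.150).

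POU2AF1 and IKZF1 were expressed in all 3 lines without a called difference. POU2AF1 (chromosome 11, 111352255 to 111455630, minus strand) was at 463, 330 and 385 CPM in unstimulated HG3. It was at 545, 551 and 507 CPM in MEC2. It was at 626, 328 and 554 CPM in PCL12. MEC2 lay above HG3 without overlap, by a Log2FC of 0.44 that missed the threshold (SE 0.24, adjusted p = 0.278), and the PCL12 value was 0.36 (SE 0.24, adjusted p = 0.395), or 0.69 with PCL12 replicate 1 alone (adjusted p = 0.407). IKZF1 (chromosome 7, 50304068 to 50405101, plus strand) was at 114, 52.8 and 98.3 CPM in HG3. It was at 58.5, 60.5 and 125 CPM in MEC2. It was at 91.6, 87.4 and 138 CPM in PCL12. The 3 lines overlapped, with Log2FC values against HG3 of -0.12 in MEC2 (SE 0.31) and 0.26 in PCL12 (SE 0.31), the latter 0.07 with PCL12 replicate 1 alone.

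BACH2 (chromosome 6, 89926528 to 90296843, minus strand) and BCL6 (chromosome 3, 187721377 to 187745725, minus strand) were the members with the lowest counts, from 0 to 95 and from 0 to 80 in a library. BACH2 ranged from 0 to 2.81 CPM over the 18 libraries and had 0 counts in unstimulated HG3 replicate 1, MEC2 replicate 3 and PCL12 replicate 3, which allows levels of up to 0.0659, 0.0855 and 0.0696 CPM. In MEC2 it was 1.38, 1.92 and 0 CPM before and 2.81, 2.14 and 0.147 CPM after CpG, so replicate 3 stood apart in both conditions. BCL6 ranged from 0 to 4.13 CPM, with the highest value in the mitochondria-rich HG3 replicate 2. Their replicates varied too widely for a call, with a Log2FC for BACH2 in MEC2 against HG3 of 1.86 (SE 1.45, adjusted p = 0.471) and for BCL6 in PCL12 against HG3 of -2.20 (SE 1.12, adjusted p = 0.255).

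**Figure D1:**
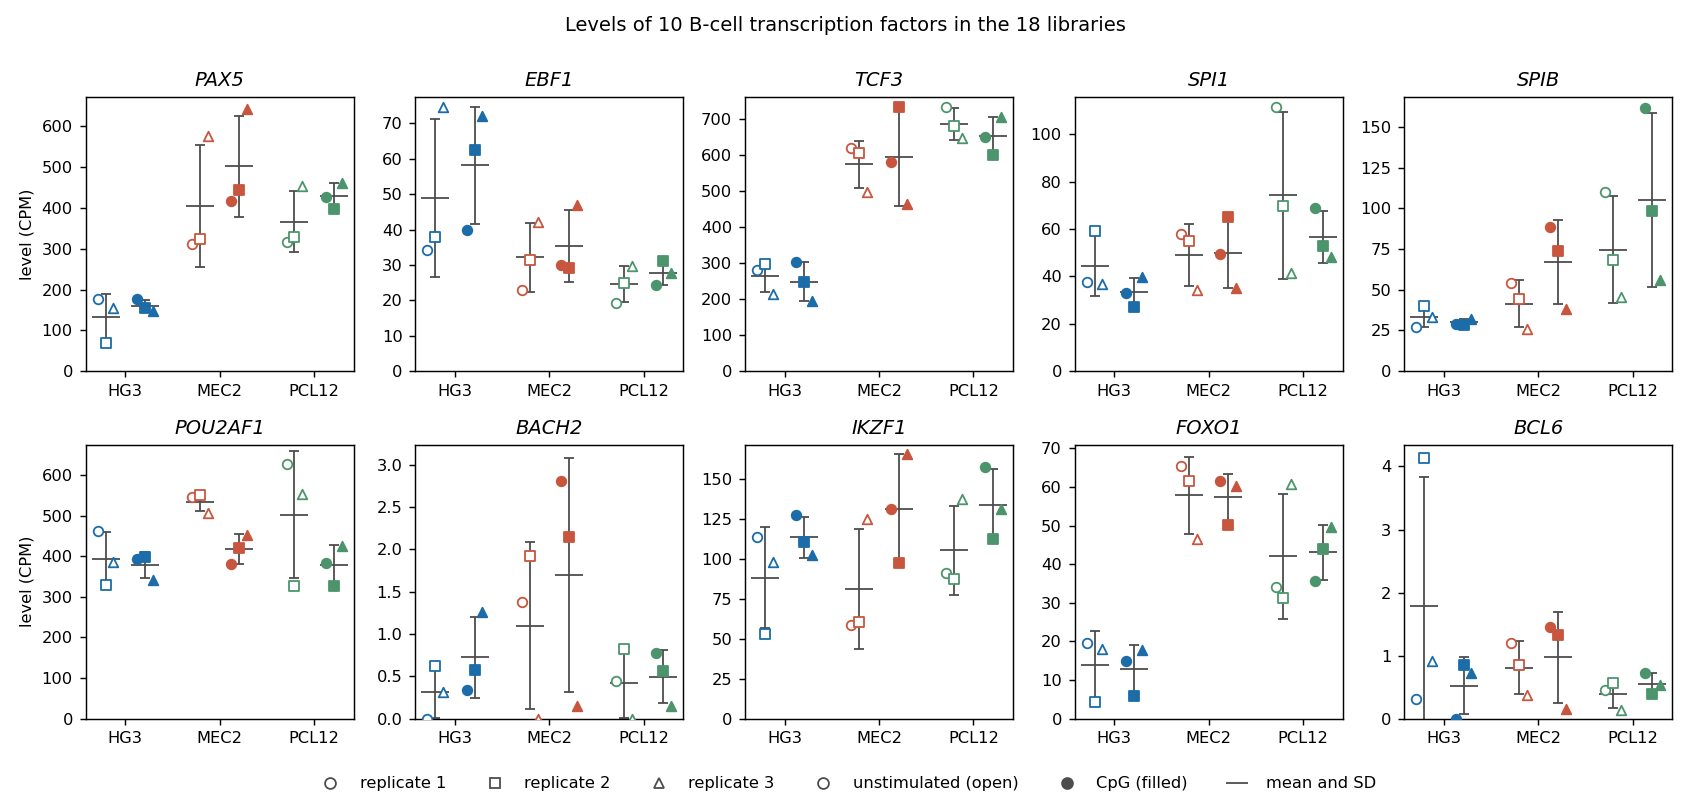
Level (CPM, linear axis from 0) of each member in the 18 libraries by cell line, with open symbols for unstimulated and filled symbols for CpG-stimulated libraries, shapes for replicates, and the mean with its SD (n = 3; bars that would pass below 0 end at the axis). PAX5, TCF3 and FOXO1 sit lowest in HG3, SPIB sits highest in PCL12 replicate 1, and BACH2 and BCL6 stay at or under 4.13 CPM.

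Set against all genes, the calls between lines were as follows. Of the 10 members, 3 passed an adjusted p under 0.05 between MEC2 and HG3, where 9.78% of all 31872 tested genes passed. Between PCL12 and HG3 5 passed against 9.44% of genes, and between MEC2 and PCL12 0 passed against 2.05% in edgeR. In that last comparison 1 member, SPIB, had a nominal P under 0.05, and DESeq2 and limma-voom also called 0. Since well-expressed genes are called more often, the 8 members averaging 10 CPM or more were also set against the 9306 such genes, of which 16.2%, 14.6% and 3.79% passed, with 3, 5 and 0 of the 8 members. Groups of 3 that did not overlap were found for 4, 5 and 1 members, against 22.2%, 21.1% and 17.3% of genes. The 4 were PAX5, TCF3, FOXO1 and POU2AF1, the 5 were PAX5, TCF3, FOXO1, EBF1 and SPIB, and the 1 was TCF3. The median Log2FC of the members was 0.38, 0.61 and 0.11 in the 3 comparisons, against 0 over all tested genes in each. With PCL12 replicate 1 as the only PCL12 pair, an arm of 1 unstimulated library with its error from the other groups, 2 members (SPIB and TCF3) passed against HG3, where 4.35% of all genes did, and 0 passed between MEC2 and PCL12, where 1.98% did. Without both mitochondria-rich libraries 3 passed between PCL12 and HG3 (TCF3, PAX5 and EBF1), against 9.97% of genes. The 2 comparisons with HG3 share its unstimulated libraries.

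**Figure D2:**
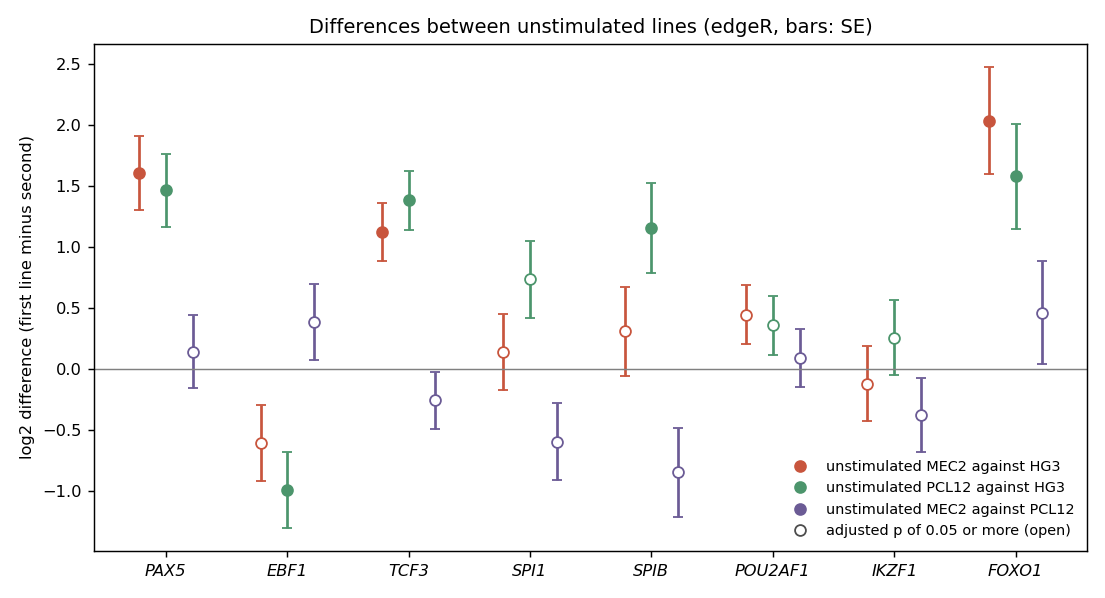
Log2 difference between unstimulated lines (vertical axis, first line minus second, bars are SE of the edgeR fit) for the 8 members averaging 10 CPM or more, filled where the adjusted p was under 0.05. PAX5, TCF3 and FOXO1 lie between 1.12 and 2.04 in both comparisons with HG3, EBF1 lies below 0 there, and the MEC2 against PCL12 points are open throughout.

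The lower level of PAX5, TCF3 and FOXO1 in HG3 also held over all 6 libraries of a line, stimulated or not, whereas TCF3 in MEC2 and PCL12, and POU2AF1 in HG3 and MEC2, overlapped once the stimulated libraries were included. PAX5 ranged from 68.7 to 177 CPM in HG3, from 312 to 643 CPM in MEC2 and from 317 to 461 CPM in PCL12. TCF3 ranged from 193 to 302, from 463 to 732 and from 599 to 732 CPM. FOXO1 ranged from 4.18 to 19.7, from 46.5 to 65.4 and from 31.3 to 60.7 CPM. HG3 was thus apart from both other lines for these 3 genes, and apart from PCL12 alone for EBF1 (34.4 to 74.6 against 19.4 to 31.2 CPM) and SPIB (27.1 to 39.9 against 45.3 to 162 CPM). The share of all genes set apart over all 6 libraries of a line was not taken, so these ranges are descriptions.

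The genes whose profile over the 18 libraries was closest to that of a called member were found among the 9306 genes averaging 10 CPM or more, by the root mean square (RMS) difference of centred log2 CPM. C9orf64 was closest to PAX5, with an RMS difference of 0.252 against an RMS of 0.829 for PAX5's own profile around its mean. It was at a mean of 7.48 CPM in unstimulated HG3, 23.0 in MEC2 and 24.1 in PCL12. CCM2 was closest to TCF3 (0.219 against 0.649), AKAP11 to FOXO1 (0.376 against 1.14), APLP2 to EBF1 (0.217 against 0.539) and PIP5K1C to SPIB (0.340 against 0.758). These values are descriptions over libraries that share lines and replicates.

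No member passed after CpG in any single line in the fit of all libraries. At an adjusted p under 0.05, 0 of 10 members passed in HG3, MEC2 or PCL12, where 0.00314%, 0.00314% and 0% of all genes passed in edgeR, and DESeq2 also called 0 members in each line. The study's definition of DEGs, a nominal P under 0.01 with |Log2FC| of at least 1, was applied to the edgeR fits, whereas the study used limma. By it there were 0 members in each line against 0.496%, 0.251% and 0.116% of genes. With limma-voom 164, 119 and 143 of the 31872 genes met it upward in HG3, MEC2 and PCL12, and 117, 33 and 64 downward. At a nominal P under 0.05 there were 0 members in HG3 (3.73% of genes), 1 in MEC2 (IKZF1, 2.46%) and 0 in PCL12 (2.09%). Groups that did not overlap were found for 0 members in HG3 (3.72%), 1 in MEC2 (POU2AF1, 4.72%) and 0 in PCL12 (4.55%).

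Ratios of CpG-stimulated to unstimulated level were taken for the 8 members averaging 10 CPM or more, and among these IKZF1 had the highest geometric mean over the 9 pairs, 1.43. BACH2 had a larger mean Log2FC, 0.72, with an SE of 0.81. After CpG the IKZF1 level was 128, 110 and 103 CPM in HG3. It was 131, 97.4 and 166 CPM in MEC2. It was 158, 113 and 132 CPM in PCL12. In replicates 1 to 3 the HG3 pairs had ratios of 1.12, 2.09 and 1.05, the MEC2 pairs 2.24, 1.61 and 1.33, and the PCL12 pairs 1.72, 1.29 and 0.955. The ratio was above 1 in 8 of 9 pairs, and the HG3 value of 2.09 came from the pair whose unstimulated library was rich in mitochondrial counts. The Log2FC was 0.36 in HG3 (SE 0.31), 0.69 in MEC2 (SE 0.31, adjusted p = 1) and 0.34 in PCL12 (SE 0.31). Without MEC2 replicate 3 among the unstimulated libraries the MEC2 value was 1.14, and IKZF1 met the DEG definition. In that fit 58 of 31664 genes met it upward and 48 downward. The mean effect over the 3 lines was 0.47 (SE 0.18, adjusted p = 1). With the replicate block, which compares the 2 libraries of each pair, it was 0.51 (SE 0.12, adjusted p = 0.00612) and IKZF1 passed. By the same block 0.555% of all genes passed and 1 of the 10 members, and without the block 0 members passed against 0.00941% of genes. IKZF1 kept its call with the replicate block without HG3 and MEC2 replicate 2 (0.43, adjusted p = 2.46e-05) and without PCL12 replicates 2 and 3 (0.67, adjusted p = 0.0311), where 1.35% and 0.383% of all genes passed. With PCL12 replicate 1 as the only PCL12 pair and no block, the CpG effect in PCL12 was 0.79 for IKZF1 (SE 0.57), 0.55 for SPIB (SE 0.53) and -0.71 for POU2AF1 (SE 0.45), each with an adjusted p = 1.

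SPIB was higher after CpG in each pair of MEC2 and PCL12 and in 1 of the 3 HG3 pairs, and none of its main fits passed. Its level after CpG was 29.1, 28.6 and 32.2 CPM in HG3. It was 88.8, 73.5 and 38.4 CPM in MEC2. It was 162, 98.1 and 55.8 CPM in PCL12. The MEC2 pairs had ratios of 1.64, 1.66 and 1.50, the PCL12 pairs 1.46, 1.43 and 1.23, and the HG3 pairs 1.08, 0.718 and 0.961. In MEC2 and PCL12 replicate 3 held the lowest level both before and after CpG. The Log2FC was 0.69 in MEC2 (SE 0.37), 0.49 in PCL12 (SE 0.36) and -0.16 in HG3 (SE 0.37), each with an adjusted p = 1. The mean over the lines was 0.34 (SE 0.21, adjusted p = 1), and with the replicate block 0.33 (SE 0.12, adjusted p = 0.425). The difference of the CpG effect between MEC2 and HG3 was 0.85 (SE 0.52, adjusted p = 1) and 0.82 with the replicate block (SE 0.30, adjusted p = 0.702), so a difference between the lines was not shown. With the block and without HG3 and MEC2 replicate 2, SPIB passed in MEC2 (0.66, adjusted p = 0.0116; 0.578% of all genes passed) and as a mean over the lines (0.38, adjusted p = 0.00221).

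POU2AF1 was lower after CpG in most pairs. Its level after CpG was 394, 398 and 341 CPM in HG3. It was 380, 419 and 453 CPM in MEC2. It was 383, 327 and 424 CPM in PCL12. The HG3 pairs had ratios of 0.851, 1.21 and 0.885, the MEC2 pairs 0.697, 0.762 and 0.894, and the PCL12 pairs 0.612, 0.997 and 0.766, below 1 in 8 of 9 pairs. The Log2FC was -0.06 in HG3 (SE 0.24), -0.36 in MEC2 (SE 0.24) and -0.41 in PCL12 (SE 0.24), and the mean over the lines was -0.27 (SE 0.14, adjusted p = 1). It passed with the replicate block without HG3 and MEC2 replicate 2 (-0.30, adjusted p = 0.00211), and not with all pairs (-0.26, adjusted p = 0.959).

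PAX5 was above 1 in 8 of 9 pairs as well, with ratios of 1.00, 2.23 and 0.968 for HG3, 1.34, 1.37 and 1.12 for MEC2, and 1.35, 1.21 and 1.02 for PCL12. The ratio of 2.23 again came from the pair with the mitochondria-rich library. The mean Log2FC was 0.27 (SE 0.17, adjusted p = 1), and 0.32 with the replicate block (adjusted p = 0.501). Of the 8 members with at least 10 CPM, 3 (PAX5, IKZF1 and POU2AF1) thus went 1 way in 8 or 9 of the 9 pairs, against 7.12% of the 9306 such genes. EBF1 was higher in 6, TCF3 in 3, SPI1 in 4 and FOXO1 in 4 of the 9 pairs, with geometric mean ratios of 1.16, 0.967, 0.855 and 1.02. SPI1 had the lowest single log2 ratio, -1.12, in HG3 replicate 2, the same pair with the mitochondria-rich library. Its HG3 replicates 1 and 3 were at -0.19 and 0.10.

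Over the 3 lines, 1 member (IKZF1) had a nominal P under 0.05 for the mean effect, against 4.04% of genes. For a difference of the CpG effect, 0 members passed an adjusted p under 0.05 or a nominal P under 0.05. All genes passed at 0% and 4.1% for MEC2 against HG3, at 0.00314% and 4.16% for PCL12 against HG3, and at 0% and 3.23% for MEC2 against PCL12.

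**Figure D3:**
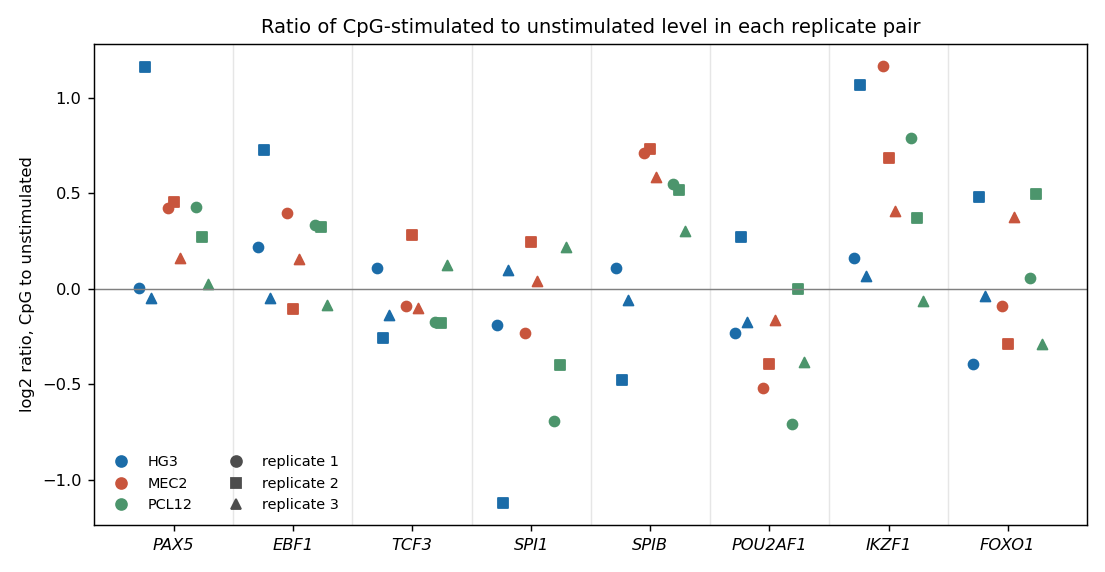
Log2 ratio of CpG-stimulated to unstimulated level (vertical axis) in each of the 9 replicate pairs, coloured by line and shaped by replicate, for the 8 members averaging 10 CPM or more. IKZF1 and PAX5 lie above 0 in 8 pairs, POU2AF1 lies below 0 in 8 pairs, and SPIB lies above 0 in each MEC2 and PCL12 pair.

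The partners of these regulators were read from 5 lists. Their counts stand beside the shares of all tested genes given above, 9.78% for MEC2 against HG3, 9.44% for PCL12 against HG3 and 2.05% for MEC2 against PCL12 (16.2%, 14.6% and 3.79% of genes averaging 10 CPM or more). Among 18 relatives from the same families, 3 were higher and 1 lower in MEC2 than in HG3, with a list median Log2FC of 0.05. FOXO3, a forkhead relative of FOXO1, was at 0.447 to 3.08 CPM in HG3, 14.5 to 18.4 CPM in MEC2 and 15.6 to 19.2 CPM in PCL12, with Log2FC values of 2.90 (SE 0.46, adjusted p = 7.71e-05) and 2.97 (SE 0.46, adjusted p = 5.77e-05). TCF12, an E protein like TCF3, was higher in MEC2 (1.01, SE 0.30, adjusted p = 0.0276), and TCF4, the third E protein, was higher in PCL12 (1.16, SE 0.23, adjusted p = 0.00123). IKZF3, the Ikaros relative Aiolos, was higher in PCL12 by 0.85 (SE 0.26, adjusted p = 0.0397). PAX6 was higher in both lines, with 0 to 1 count in an unstimulated HG3 library, and PAX8 was lower in MEC2 (2.00 to 3.56 against 0 to 0.286 CPM). In PCL12 4 relatives were higher in all, and with PCL12 replicate 1 alone 1 was (FOXO3).

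Of 20 other B-cell transcription factors, 5 were higher in MEC2 than in HG3 and 5 in PCL12, with list medians of 1.30 and 0.91. ARID5B, a chromatin cofactor, was at 1.60 to 5.85 CPM in HG3, 24.4 to 44.9 CPM in MEC2 and 18.3 to 19.5 CPM in PCL12 (Log2FC 3.48 and 2.54, SE 0.41 and 0.40). ELF1, an ETS factor, and POU2F1, an octamer factor, were higher in MEC2 by 2.07 (SE 0.47) and 0.92 (SE 0.28). RUNX1 and AFF3 were also called there. HHEX, a homeobox factor, was at 7.17 to 10.3 CPM in HG3, 3.39 to 9.59 CPM in MEC2 and 40.5 to 105 CPM in PCL12. It was higher in PCL12 than in HG3 (2.91, SE 0.40), as were BHLHE41, LEF1 and AFF3, and with PCL12 replicate 1 alone its Log2FC was 3.66. In that fit, with 1 PCL12 library, HHEX, ARID5B, LEF1 and BHLHE41 stood above HG3 and RUNX1, which ranged from 2.05 to 29.3 CPM over the 3 PCL12 libraries, stood below it (-2.24). Between MEC2 and PCL12 2 factors, HHEX and LEF1, were lower in MEC2. POU2F2, the other octamer partner of POU2AF1, was not called between lines (0.02 and -0.29 against HG3).

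Of 12 inhibitors and corepressors, 2 were higher and 3 lower in MEC2 than in HG3. ID2, which sequesters E proteins, was at 149 to 298 CPM in HG3, 37.1 to 54.5 CPM in MEC2 and 54.5 to 87.5 CPM in PCL12. HG3 thus held the lowest TCF3 and the highest ID2 level, and a link between them was not tested. ID2 was lower in MEC2 by a Log2FC of -2.33 (SE 0.31, adjusted p = 7.89e-06) and in PCL12 by -1.68 (SE 0.31, adjusted p = 0.000399), and with PCL12 replicate 1 alone the value was -1.54 (adjusted p = 0.0860). ID3, of the same family, had the opposite order, at 11.3 to 16.6 CPM in HG3, 39.1 to 79.8 CPM in MEC2 and 22.2 to 32.9 CPM in PCL12 (2.19, SE 0.34, in MEC2 and 1.00, SE 0.33, adjusted p = 0.0506, in PCL12). HDAC9 was higher and HDAC4 and ZNF521 lower in MEC2, and ID2 was the 1 call of this list in PCL12.

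Of 21 tested target genes (22 listed), 5 were higher in MEC2 than in HG3, and 5 were higher and 1 lower in PCL12. RALGPS2 was at 0.0440 to 0.671 CPM in HG3, against 19.4 to 31.3 CPM in MEC2 and 13.7 to 18.7 CPM in PCL12. FCRLA was at 7.37 to 21.3 CPM in HG3, 51.2 to 98.1 CPM in MEC2 and 48.7 to 87.1 CPM in PCL12, and VPREB3, the surrogate light chain relative, was also higher in both. CD72 was higher in MEC2 and CR2 in PCL12, and CD37 was lower in PCL12 (-1.48, SE 0.27). With the 1 library of PCL12 replicate 1 alone, the Log2FC values were 5.48 for RALGPS2, 2.79 for FCRLA, 4.84 for VPREB3, 0.68 for CR2 and -1.11 for CD37. CD79A, CD79B, MS4A1 and CD22, classical B-cell targets of these regulators, were not called in any comparison between lines (0 of 4). Of 12 genes of the plasma cell programme, CD38 and SDC1 were higher in MEC2 than in HG3 and CD38 in PCL12, and SDC1 was higher in MEC2 than in PCL12 (not with PCL12 replicate 1 alone).

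**Figure D4:**
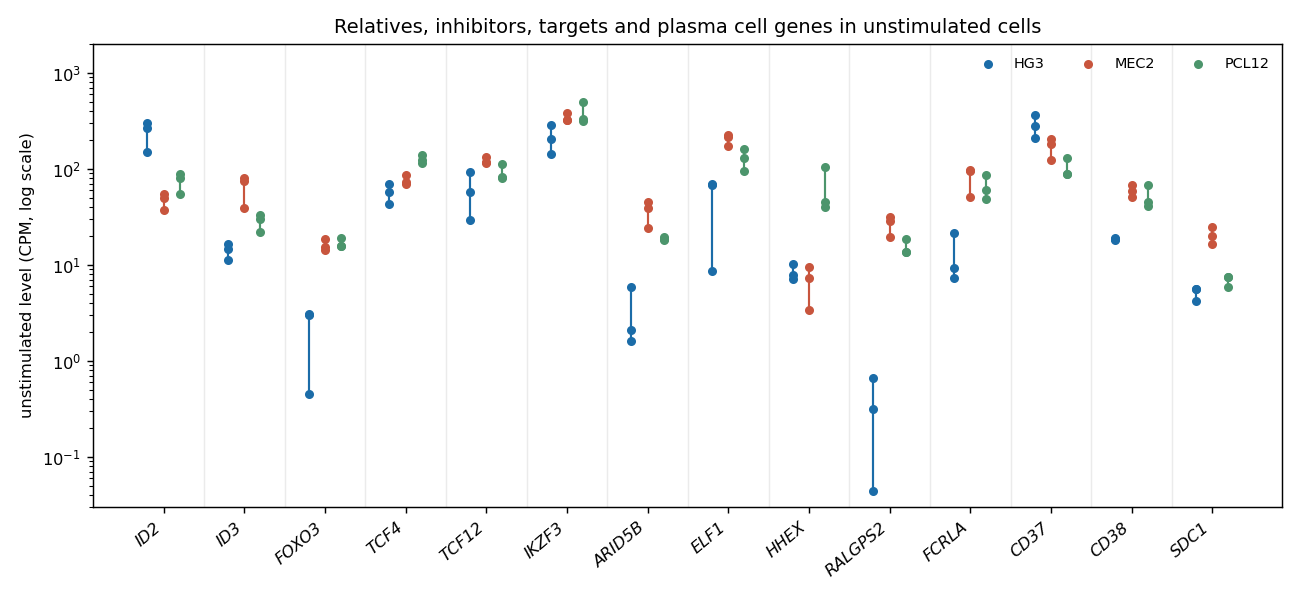
Unstimulated level (CPM, log axis) of 14 relatives, inhibitors, targets and plasma cell genes in the 3 lines, with points for the 3 libraries of a line and a bar from the lowest to the highest. ID2 and CD37 are highest in HG3, whereas FOXO3, ARID5B, RALGPS2 and FCRLA are lowest there and HHEX is highest in PCL12.

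After CpG 0 genes of these 5 lists passed in any line or as a mean over the lines (edgeR, adjusted p under 0.05). With the replicate block, by which 0.555% of all genes passed as a mean over the lines, 3 of the 20 other B-cell factors rose and 1 fell, 1 of the 12 inhibitors fell, 2 of the 21 targets rose and 1 fell, and 1 of the 12 plasma cell genes rose. Among the other B-cell factors FOXP1 rose by 0.99 (SE 0.21, adjusted p = 0.000947), POU2F2 by 0.52 (SE 0.12, adjusted p = 0.00603) and IRF8 by 0.44 (SE 0.12, adjusted p = 0.0433), and KLF2, a quiescence factor, fell (-0.65, SE 0.16, adjusted p = 0.0110). ID3 was the 1 inhibitor that passed and fell (-0.75, SE 0.14, adjusted p = 3.53e-05). Among the targets CD40 (0.51) and CIITA (0.51) rose and FCRLA fell (-0.50), and ELL2, an elongation factor of plasma cells, rose by 0.63 (SE 0.12, adjusted p = 0.000143). Relatives of the members had 0 calls with the block. FOXP1 was at a mean of 1.78 CPM before and 1.81 CPM after CpG in HG3, at 7.39 and 28.2 CPM in MEC2 and at 3.47 and 7.50 CPM in PCL12, with Log2FC values by the block of 0.17, 1.86 and 0.95. Within MEC2, FOXP1, ID3, CIITA and CD40 passed with the block, by which 0.333% of all genes passed there, and in HG3 their Log2FC values were 0.17, -0.29, 0.33 and 0.08. The difference of the CpG effect between MEC2 and HG3 passed for none of these 4 genes with the block (FOXP1 1.70, SE 0.51, adjusted p = 0.256).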

How the data were processed

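RNA from HG3, MEC2 and PCL12 cells (6 groups of 3 libraries) was sequenced with a stranded protocol, per the labels a Lexogen Quantseq kit. The gene counts deposited by the authors are raw counts per symbol, in a single table of 56609 rows, with each column matched to a sample by its label. The submitters' processing notes name FastQC, MultiQC, Trimmomatic, STAR, featureCounts and hg38. Their versions, the annotation and whether duplicates were removed are not given in the sources used here. Whether reads were counted by strand is not given either, and without it reads of antisense genes would add to those of the members, whose exons overlap opposite-strand exons over 415 bases for BACH2, 316 and 171 for BCL6, 236 for POU2AF1, 126 for PAX5 and 110 for IKZF1. The labels and the methods of the study name different RNA extraction kits.

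Counts were analysed with R 4.3.3 and edgeR 4.0.16. Genes with at least 10 counts over the 18 libraries were kept (31872 of 42248 with a count), scaled by TMM and tested with robust glmQLFit on 1 mean per group (12 residual degrees of freedom). Adjusted p values are Benjamini-Hochberg values across the tested genes. DESeq2 1.42.0, limma-voom (limma 3.58.1), other scalings and filters, the 2 groups alone, a replicate block and fits without single libraries were alternatives. Scripts were tested on simulated data. The design text states that each replicate series held 1 stimulated and 1 unstimulated sample, so the numbers pair samples within a line. Deviations of the 2 libraries of a pair correlated at 0.212 to 0.480 in HG3, -0.0134 to 0.611 in MEC2 and 0.494 to 0.607 in PCL12 (over genes averaging 1 CPM or more). In MEC2 the first CpG library correlated better with the second unstimulated library (0.449), and the second with the first (0.388), than within their own pairs (0.189 and -0.0134). Start regions came from RefSeq on GRCh38.p14 and positions from GENCODE 44. Counting error sets a floor of 3 counts, and PCR copies make it too favourable.

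The members, lists, motifs and tests were chosen with earlier results of these data known. From the lists, genes called at an adjusted p under 0.05 are named (up to 6 per comparison, smallest P), with others named to say that they were not called, and for each member called between lines the closest of 3 similar genes. Some listed genes are not reported here.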

Additional observations from a re-analysis of the deposited data

How the results depend on the processing

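The members called between PCL12 and HG3 depended most on the processing. The count of 5, against 9.44% of all genes, became 3 with limma-voom, where 2123 of 31872 genes were called higher and 1889 lower. It became 2 with the 2 groups alone (961 and 1043 of 24888 genes) and 3 without both mitochondria-rich libraries (9.97% of genes). The fit with PCL12 replicate 1 as the only PCL12 pair is described above. The count was 3 to 4 when 1 library was left out (3 without HG3 replicate 3, PCL12 replicate 1 or PCL12 replicate 2). When each of the 6 unstimulated libraries of these lines was left out in turn, EBF1 was called in 2 fits and SPIB in 1. The counts between MEC2 and HG3 (3) and between MEC2 and PCL12 (0) stayed the same in each alternative, the replicate number shared by the lines included. For CpG the replicate block gave 1 member as a mean over the lines, 1 without PCL12 replicates 2 and 3, and 3 without HG3 and MEC2 replicate 2, with 0.555%, 0.383% and 1.35% of all genes called. That last block gave 2 members called in MEC2 (SPIB and IKZF1), where 0.578% of all genes were called. It gave 1 DEG in HG3 (BACH2, at 0 to 40 counts there), where 177 of 30605 genes met the definition upward and 110 downward. Leaving out 1 library gave 0 to 1 DEG in MEC2 (IKZF1). Without MEC2 unstimulated replicate 3, 58 of 31664 genes met the definition upward and 48 downward. The replicate block changed no other call. The 2 alternatives without single doubtful pairs in the block, and that without mitochondria-rich libraries, were chosen after seeing the data. Of 33 fold changes of members that were checked, 3 changed sign in 12 other settings. IKZF1 in PCL12 against HG3 did so without the mitochondria-rich libraries (-0.0070). SPIB after CpG in HG3 did so with the block and without replicate 2 (0.035), and POU2AF1 there with library totals (0.0033). Fold changes of genes from the partner lists were not part of this check. With 1 library left out, IKZF1 in MEC2 against HG3 ranged from -0.57 to 0.12, SPIB after CpG in HG3 from -0.29 to 0.011 and POU2AF1 there from -0.14 to 0.092. The cause of these changes was not tested. BACH2 and BCL6 held 0 to 95 counts in a library, and their spread between replicates, with 3 libraries a group, left wide errors.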
